A study of Homo sapiens with 2 samples.

Results

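Neuro-epithelial progenitors (NEP) were the cells that carried this label in the deposited metadata of the day 10 culture, 1811 of the 7295 cells kept there. The label was the rule by which they were chosen, and it came from the authors' clustering of the same cells on the same counts. Levels in NEP against the other clusters are therefore a description, and no test was made of them. The other kept cells were 4921 enteric neural crest cells (ENCCs), 324 cells of the cranial placode (CP) label and 239 cells of the non-neural ectoderm (NNE) label. A further 2332 of the 9627 cells were marked as low quality and left out.

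The culture was of the human embryonic stem cell line H9, grown as an adherent layer on Geltrex. Medium A held BMP4, the activin and TGF-beta receptor inhibitor SB431542 and the GSK3 inhibitor CHIR 99021, and was followed by medium B and then by medium C, which added retinoic acid on days 6, 8 and 10. All 4 classes shared those cultures, media and age, and nothing but the cluster label separated them. The library pooled 2 biological repeats whose cells the metadata do not assign, so it was 1 sample, with no replicate check of any value. It shared 102 cell barcodes with the day 15 library of the same study, which was made from free-floating spheres.

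The neuroepithelium is the polarised, single-layered epithelium of the neural plate and neural tube. Its cells divide at the apical surface, are held together by N-cadherin junctions, and take a position along the body from signals that include WNT, BMP, FGF and retinoic acid. In culture they arise beside the neural crest, since both form at or near the border between neural plate and surface ectoderm.

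Levels are counts of unique molecular identifiers (UMIs), added up within each class and given per 1000000 UMIs of that class (CPM). The NEP cells held 14038715 UMIs, with a median of 7227 UMIs and 2210 detected genes per cell, against 7004 UMIs and 1915 genes in ENCCs. Median UMIs in CP and NNE were 7438 and 7349, so depth per cell was alike in the 4 classes. The median mitochondrial share was 3.67% in NEP and 3.49% in ENCCs, and the ribosomal share was 36.8% and 44.7%. Brackets after a level hold its exact 95% Poisson interval and brackets after a share its exact 95% binomial (Clopper-Pearson) interval, and both cover counting error only. A gene with 0 UMIs over the NEP cells could still lie at up to 0.214 CPM.

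NEP transcribed WNT2B, PAX6, TRPM3, CCK and BHMT well above the other classes. WNT2B, a secreted ligand of the WNT pathway (chr1:112466541-112530165, plus strand, coordinates on GRCh38), was at 827 CPM in NEP (812 to 842), 49.6 in ENCCs, 35.5 in CP and 15.2 in NNE. PAX6, a homeodomain factor of the neural plate, eye and placodes (chr11:31784779-31818062, minus strand), was at 572 CPM in NEP (559 to 584), 34.2 in ENCCs, 63.8 in CP and 8.67 in NNE. TRPM3, a cation channel (chr9:70529063-71446904, minus strand), was at 312 CPM in NEP (303 to 322) and at 15.6, 8.77 and 4.33 CPM in the same 3 classes. WNT2B and TRPM3 had their second highest level in ENCCs and PAX6, which placodes also use, in CP. CCK, the precursor of the peptide cholecystokinin (chr3:42257825-42266207, minus strand), was at 74.7 CPM in NEP, 3.27 in ENCCs, 3.19 in CP and 1.08 in NNE. BHMT, the enzyme that remethylates homocysteine with betaine (chr5:79111779-79132290, plus strand), was at 84.4 CPM in NEP, 4.33 in ENCCs, 2.79 in CP and 2.71 in NNE. The log2 ratio of NEP over ENCCs, taken here and throughout on CPM + 1, was 4.03 for WNT2B, 4.03 for PAX6, 4.23 for TRPM3, 4.15 for CCK and 4.00 for BHMT.

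Most of the small ENCC level of these genes came from a few cells. Of the 4921 ENCCs, 4665 were in 4 numbered subclusters, and the rest held 79.7% of the WNT2B UMIs of ENCCs, 81.6% of those of PAX6 and 84.4% of those of BHMT. In these few cells WNT2B was at 649 CPM, PAX6 at 458, TRPM3 at 197, CCK at 43.6 and BHMT at 60.0, each below NEP but far above the numbered ENCCs, where the 5 genes were at 10.7, 6.69, 3.89, 0.663 and 0.72 CPM. The deposited label still called them ENCC, with a median of 8377 UMIs. For its day 10 ENCC subclusters the paper lists a removal before clustering again, with high placode gene expression as the reason. Whether the cells outside the numbered subclusters were those removed was not tested. Against the numbered ENCCs, and without an NEP subcluster with crest transcripts described further on, the log2 ratios were 6.19 for WNT2B, 6.27 for PAX6, 6.04 for TRPM3, 5.57 for CCK and 5.72 for BHMT.

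**Figure D1:**
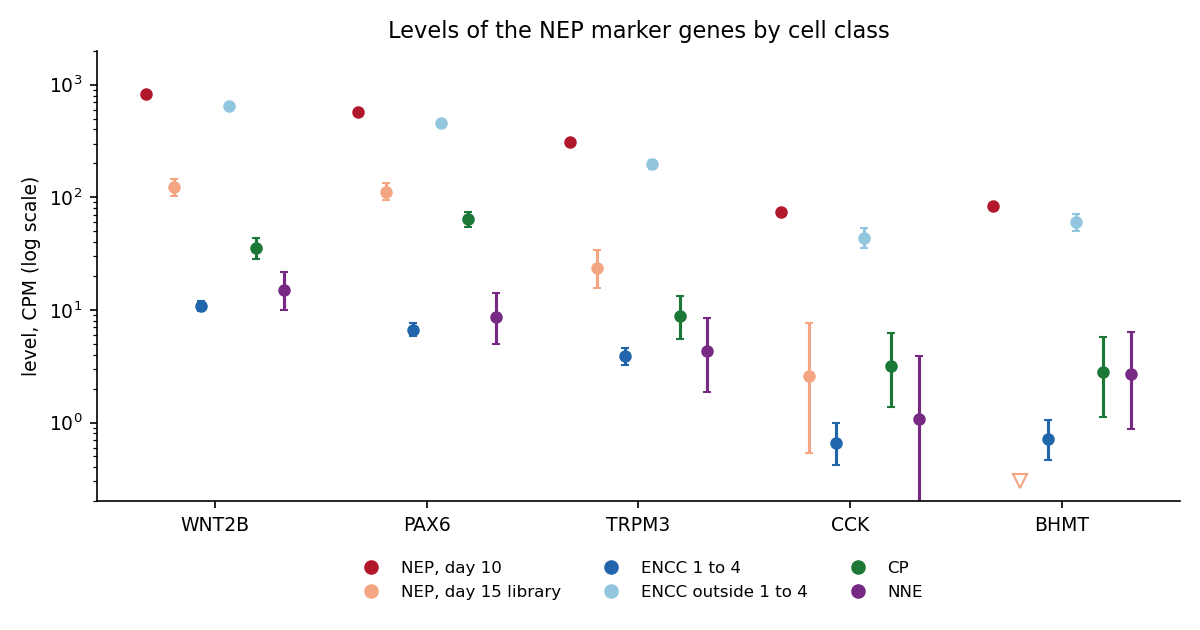
Levels of the 5 NEP markers in CPM on a log axis, for NEP, the numbered ENCCs, the ENCCs outside them, CP and NNE at day 10 and for the NEP label of the separately made day 15 library. Points are summed counts of 1 library, bars are exact 95% Poisson intervals, an open triangle stands for 0 UMIs, and a bar that reaches the lower edge goes on below it. Every marker has its highest point in day 10 NEP, with the outside ENCCs next among the day 10 classes.

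The markers were shared by most NEP cells but not by all. A median NEP cell had 6 UMIs of WNT2B (quartiles 2 and 9), and 12.1% of cells had none. PAX6 had a median of 4 UMIs, with 15.5% of cells at 0, and TRPM3 a median of 2, with 32.8% at 0. CCK and BHMT were seen in a minority of cells, with no UMI in 67.3% and 74.9% of NEP cells, although single cells held up to 20 BHMT UMIs. After every cell was thinned to 3000 UMIs, which left out 13 shallower NEP cells, WNT2B was detected in 78.6% of NEP cells (87.9% before thinning), 2.92% of numbered ENCCs, 5.57% of CP cells and 5.53% of NNE cells. The CP and NNE cells had median depths close to that of NEP. The part of free RNA in these shares was not tested. WNT2B and PAX6 were found together in 63.1% of NEP cells (60.8 to 65.3%), 0.129% of numbered ENCCs, 50.4% of the ENCCs outside them and 1.24% of CP cells. None of the 5 markers was found in 213 of 1798 thinned NEP cells, 11.8% (10.4 to 13.4%).

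Several textbook markers of neural tube progenitors were scarce under this label. SOX1, a factor that marks the early neural plate, had 3 UMIs over all 1811 cells and HES5, a Notch target of dividing neural progenitors, had 2. SOX2, a factor of stem and neural progenitor cells, was at 16.1 CPM in NEP against 21.2 in ENCCs, and the intermediate filament gene NES was at 13.5 against 23.6. N-cadherin (CDH2) did stand out, at 135 CPM in NEP, 31.9 in ENCCs, 32.7 in CP and 4.87 in NNE. The 6 genes SOX1, SOX2, SOX3, NES, HES5 and CDH2 together came to 171 CPM in NEP, 77.2 in ENCCs, 92.9 in CP and 14.6 in NNE, and most of the NEP sum was CDH2. Because SOX1 and HES5 were at or near 0, NEP is used below as the name of the deposited cluster and not as a statement of identity.

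Markers of other classes were also read in these cells. Crest markers were low, with SOX10 at 12.6 CPM in NEP and 119.7 in ENCCs, FOXD3 at 1.92 and 18.4, ERBB3 at 9.4 and 68.8 and TFAP2B at 36.3 and 425. The 5 NNE markers (EPCAM, CDH1, KRT8, KRT18, KRT19) summed to 1298 CPM in NEP, 5319 in NNE and 102 in ENCCs, so the keratins set NEP apart from ENCCs too. In NEP, EPCAM and CDH1, the cell surface markers of surface epithelium, were at 9.62 and 1.64 CPM. The 5 roof plate markers (LMX1A, GDF7, WNT1, WNT3A, MSX1) summed to 87.2 CPM in NEP against 5.74 in ENCCs, with WNT1, a defining gene of the dorsal midline, at 0 UMIs. The 4 pigment epithelium markers came to 329 CPM, of which the melanosome matrix gene PMEL gave 307, while tyrosinase (TYR) had 1 UMI. The 4 choroid plexus markers (TTR, CLIC6, AQP1, KCNJ13) summed to 4.63 CPM. The 5 mesenchymal markers summed to 57.1 CPM, mostly MSX1, with TWIST1 and PRRX1 at 0, the 5 neuronal markers to 10.3 CPM against 477 in CP, and the 4 pluripotency markers to 62.3 CPM against 107 in ENCCs.

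Against ENCCs, NEP had many more genes on the high side than on the low side. Of 7726 genes with at least 10 CPM in either class, 970 (12.6%) were at least 2-fold higher in NEP and 209 (2.71%) at least 2-fold lower, and 421 and 77 were at least 4-fold apart. The median log2 ratio of all these genes was 0.16. This split depended on the scaling. With TMM factors the median was -0.04, 788 genes were higher and 343 lower, and 69.7% of the genes past 2-fold were higher in place of 82.3%. Log2 ratios in the following paragraphs, on total UMIs, are to be read against that shift of the median. The filter also bears on these counts, since 1225 genes passed it through NEP alone and 334 through ENCCs alone, and such a gene could not fall on the other side. Counts and medians over the members of a list that passed are thus a description and no support for its direction. Of the 6167 genes with at least 10 CPM in both classes, 313 (5.08%) were at least 2-fold higher in NEP and 96 (1.56%) lower.

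**Figure D2:**
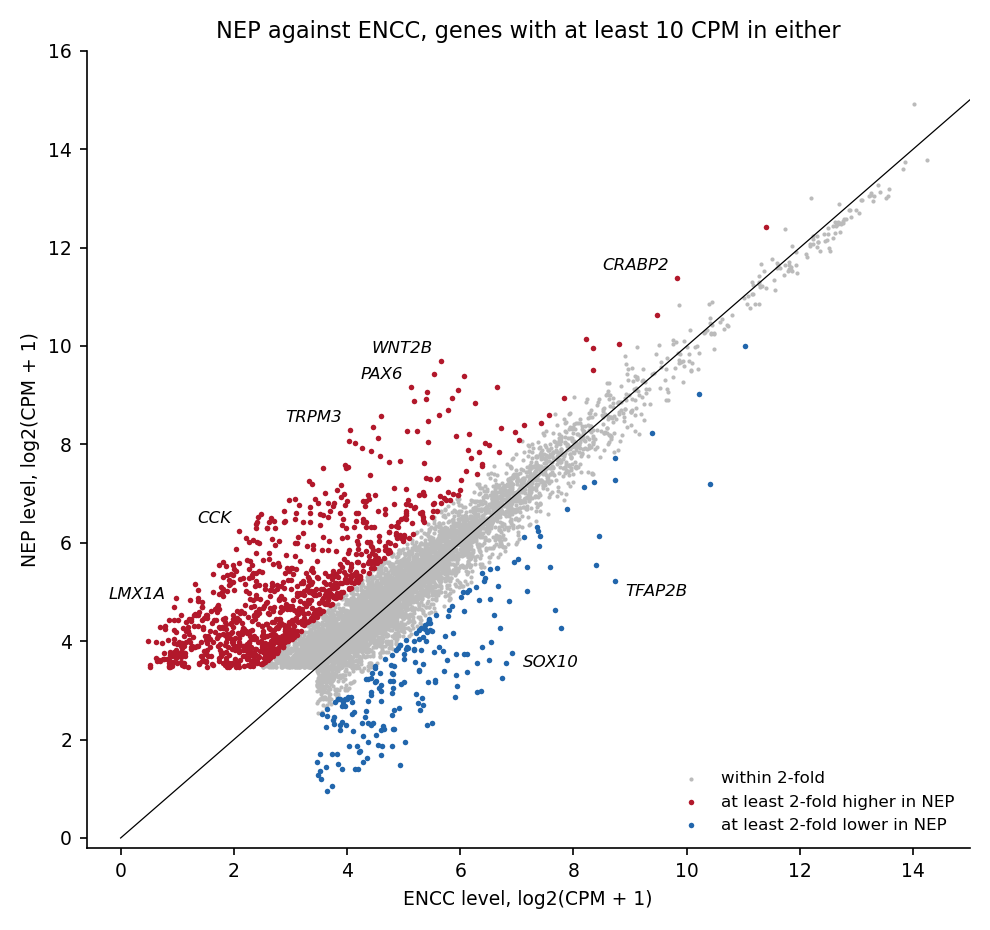
Each point is 1 of the 7726 genes with at least 10 CPM in NEP or ENCCs, by its level in ENCCs (x axis) and NEP (y axis), both as log2(CPM + 1), with a line of equal levels. The 970 genes at least 2-fold higher in NEP lie above the line in red and the 209 at least 2-fold lower lie below it in blue. The NEP markers stand at the upper left edge and crest genes such as TFAP2B and SOX10 at the lower right.

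The 12 genes with the highest ratio over ENCCs, among those with at least 50 CPM and a UMI in 10% of cells, were the 5 markers and LYPD1, HSD17B2, KRT19, CA2, CXCL14 and 2 transcripts without a gene name. HSD17B2, an enzyme that oxidises estradiol and testosterone, was at 91.1 CPM in NEP, 4.36 in ENCCs, 3.99 in CP and 2.17 in NNE. CA2, a cytosolic carbonic anhydrase, was at 183 CPM in NEP and 10.9 in ENCCs, and the chemokine gene CXCL14 at 152 and 9.04. CXCL14 was not confined to NEP, with 99.1 CPM in NNE.

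Crest genes made up the opposite end. Of 20 neural crest genes, 16 passed the 10 CPM filter, and 12 of these were at least 2-fold lower in NEP and 0 higher, with a median log2 ratio of -2.60. Of the 8 with at least 10 CPM in both classes, 6 were lower, and 7 passed through ENCCs alone. NGFR, the low-affinity neurotrophin receptor, was at 8.48 CPM in NEP against 105 in ENCCs (log2 -3.48). TFAP2B, a factor of crest specification, had a log2 ratio of -3.52, and SOX10, the master regulator of crest-derived glia and enteric progenitors, one of -3.15. Without NEP subcluster 3, which is described further on, SOX10 was at 5.77 CPM in NEP and TFAP2B at 19, and their log2 ratios against the numbered ENCCs were -4.23 and -4.48. ERBB3, SNAI2, ETS1, EDNRB, S100B, FOXD3 and TFAP2A were at least 2-fold lower as well. PAX3, which the neural plate border and the dorsal neural tube share with the crest, was within 2-fold at 89.5 CPM in NEP and 65 in ENCCs.

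Some genes of epithelial structure were higher in NEP than in ENCCs. Of 11 apical polarity and junction genes, 10 passed the filter, 6 were at least 2-fold higher than in ENCCs and 0 lower, with a median of 1.72, and of the 7 with 10 CPM in both classes 3 were higher. CRB2, an apical determinant of the Crumbs complex, was at 94.9 CPM in NEP, 10.5 in ENCCs, 16.8 in CP and 2.71 in NNE. PARD6B of the Par complex was at 35.9 CPM against 6.28 in ENCCs and the neural alpha-catenin gene CTNNA2 at 42 against 6.87. PROM1, which encodes the apical membrane protein prominin, was at 10.9 against 0.893. PARD6B, CTNNA2 and PROM1 passed through NEP alone, so that their side was set by the filter. Of 18 epithelial genes, 6 passed the filter. TFAP2C, GATA3 and CLDN6 passed through NEP alone, so that their side was set by the filter, while the keratins KRT8, KRT18 and KRT19 had over 10 CPM in both classes and were at least 2-fold higher in NEP. KRT19 was at 266 CPM in NEP, 15.3 in ENCCs and 1225 in NNE, and KRT18 at 538, 41.8 and 2151. KRT8 and KRT18 have many processed pseudogenes, so their counts are uncertain. Of 13 mesenchymal genes 3 passed the filter, with MSX1 higher in NEP and the collagen genes lower, COL1A1 at 12.4 against 68.2 CPM and COL1A2 at 153 against 424.

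The neural progenitor list was mixed. Of 22 genes, 16 passed the filter, 6 were at least 2-fold higher in NEP than in ENCCs (PAX6, HES1, CDH2, DACH1, NR2F2, PROM1) and 1 lower (PTN), with a median of 0.69. DACH1 and PROM1 passed through NEP alone. Among the 14 with at least 10 CPM in both classes, 4 were higher and 1 lower, with a median of 0.52. DACH1, a cofactor of eye and limb development, was at 26.6 CPM in NEP, 4.95 in ENCCs, 23.5 in CP and 8.12 in NNE, so CP held a level close to that of NEP. Of 19 neurogenesis genes only 3 passed, with 1 at least 2-fold higher than in ENCCs (ELAVL2) and 1 lower. ELAVL2, an RNA-binding protein of neurons, was at 14.5 CPM in NEP and 106 in CP, and NEUROG1, a proneural factor of sensory lineages, was at 6.13 and 362.

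Positional genes were read in dorsal, ventral, anterior and hindbrain lists. Of 20 ZIC and dorsal neural tube genes, 7 passed the filter. ZIC1, ZIC2, MSX1, MSX2, LMX1A and GDF7 passed through NEP alone, so that their side was set by the filter, and PAX3, with over 10 CPM in both classes, was within 2-fold. ZIC2, a zinc finger factor of the dorsal neural tube, was at 54.3 CPM in NEP, 4.25 in ENCCs, 6.78 in CP and 1.08 in NNE. LMX1A, a roof plate homeodomain factor, was at 24.9 CPM in NEP and 0.92 in ENCCs, and the roof plate growth factor GDF7 at 12 and 0.866. MSX1 and MSX2, targets of BMP signalling, were at 48.4 and 54.7 CPM, but NNE held 50.4 and 196. None of 10 ventral neural tube genes passed the filter, and SHH and NKX2-2 had 0 UMIs in NEP.

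Of 19 forebrain and eye genes, 4 passed and 3 were at least 2-fold higher than in ENCCs. OTX1 and SIX6 passed through NEP alone, so that their side was set by the filter. OTX1 and OTX2, which mark forebrain and midbrain, were at 65.7 and 68 CPM in NEP, 4.03 and 10.9 in ENCCs and 5.58 and 18.3 in CP. SIX6, a factor of eye and hypothalamus, was at 27.4 CPM against 1.57 in ENCCs. LHX2, a factor of forebrain and eye, had 0 UMIs in NEP, and EN1 and FGF8 of the midbrain and hindbrain boundary also had 0.

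Of 16 midbrain and hindbrain boundary genes, 4 passed the filter and 2 were at least 2-fold higher than in ENCCs. MEIS2, a cofactor of HOX proteins, was at 157 CPM in NEP, 48 in ENCCs, 77 in CP and 329.9 in NNE. In the HOX and CDX list, HOXB1 was at 28.6 CPM in NEP, 0.974 in ENCCs, 19.5 in CP and 127 in NNE, and HOXB2 at 30.1, 10.3, 48.7 and 105 CPM in the same order. Both were at least 2-fold higher in NEP than in ENCCs, although HOXB1 passed through NEP alone, and both were at their highest in NNE. After thinning, OTX2 was found in 18.9% of NEP cells and HOXB1 in 4.84% (37.7% and 10.1% before thinning).

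Medium C brought retinoic acid, and genes of its handling were among those that separated NEP and NNE from ENCCs. Of 17 genes of the pathway, 11 passed the filter, 6 were at least 2-fold higher in NEP than in ENCCs (CYP26A1, DHRS3, RARB, CRABP1, CRABP2, ALDH1A1) and 1 lower (RARG), with a median of 1.32. ALDH1A1 passed through NEP alone. Among the 10 with at least 10 CPM in both classes, 5 were higher and 1 lower, with a median of 0.47. CYP26A1, which breaks retinoic acid down and is itself a direct target of the retinoic acid receptor (chr10:93073475-93077890, plus strand), was at 691 CPM in NEP (678 to 705), 45.4 in ENCCs, 41.5 in CP and 1198 in NNE (1149 to 1249). DHRS3, which reduces retinaldehyde to retinol, followed the same order at 112 CPM in NEP, 10.2 in ENCCs, 9.97 in CP and 213 in NNE. The carrier CRABP2 was at 2665 CPM in NEP, 909 in ENCCs, 1391 in CP and 4051 in NNE, whereas CRABP1 was highest in CP, with 997 CPM there, 254 in NEP and 5.42 in NNE. ALDH1A1, which makes retinoic acid from retinaldehyde, was the member of this list closest to NEP alone, at 86.3 CPM in NEP, 6.52 in ENCCs, 1.6 in CP and 2.71 in NNE. The receptor gene RARB was at 29.5 CPM in NEP, 11.2 in ENCCs, 15.2 in CP and 47.7 in NNE, and RARG was at 10.6 in NEP against 39.8 in ENCCs (log2 -1.81).

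RARB and CYP26A1 are shown by sequence because they were the members of the retinoic acid list with a direct repeat of retinoic acid receptor elements next to a transcription start. The search took 2 copies in the same direction of AGGTCA (or of its variants AGTTCA or else GGGTCA or else GGTTCA) with 5 bases between, on both strands, in windows of 250 bases before to 50 after each start in RefSeq (GRCh38.p14). It found a match in 31 of 35116 windows (0.0883%), in 2 of 32 windows of the 15 retinoic acid genes that could be matched, and in 0 of 19 windows of 12 HOX genes and 0 of 16 windows of the 5 NEP markers. The last 120 bases before the start are given 5′ to 3′, from chr3:25428143-25428262 and chr10:93073773-93073892 (both plus strand), with both copies in capitals. Each start lies inside its gene by the annotation used for gene coordinates.
RARB: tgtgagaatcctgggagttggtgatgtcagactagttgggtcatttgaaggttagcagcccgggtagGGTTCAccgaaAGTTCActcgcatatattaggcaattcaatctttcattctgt
CYP26A1: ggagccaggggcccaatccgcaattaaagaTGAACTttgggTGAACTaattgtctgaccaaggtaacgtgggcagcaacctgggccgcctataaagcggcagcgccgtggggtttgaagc
The RARB repeat lay on the plus strand at -53 to -37 from the start, and the CYP26A1 repeat read on the minus strand at -90 to -74, where both copies appear as TGAACT. A match of letters is not a measured binding site, and no match says nothing of the factor.

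Genes of signalling pathways were read pathway by pathway. Of 16 WNT ligand genes, WNT2B was the one that passed the filter, so the ligand sum of 849 CPM in NEP was almost wholly WNT2B. Of 24 WNT receptors and antagonists, 10 passed, 6 were at least 2-fold higher than in ENCCs (FZD7, FZD10, LGR4, SFRP1, SFRP2, DKK1) and 1 lower (ROR1), and 4 had passed through NEP alone. SFRP2, a secreted frizzled-related antagonist (chr4:153780592-153789120, minus strand), was at 468 CPM in NEP (457 to 479.8), 35.2 in ENCCs, 12 in CP and 5.42 in NNE. DKK1, which blocks the LRP co-receptors, was at 18.1 against 0.731 CPM in ENCCs, and the receptor FZD10 at 17.5 against 1.22. Of 13 feedback genes of the pathway, 5 passed and 1 was at least 2-fold higher, the membrane inhibitor APCDD1 (23.6 against 3.17 CPM), while AXIN2, the usual readout of canonical signalling, was at 23.2 against 11.2 (log2 0.98) and just missed 2-fold.

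Of 21 BMP and TGF-beta genes, 8 passed the filter, 5 were at least 2-fold higher than in ENCCs and 0 lower, with a median of 1.77. BMP4 and BMP7 passed through NEP alone, so that their side was set by the filter. Among the 6 with at least 10 CPM in both classes, 3 were higher and 0 lower, with a median of 0.87. Over all genes with that level in both classes, 5.08% were higher and 1.56% lower. BMP4, a ligand that was also in medium A, was at 117 CPM in NEP, 6.87 in ENCCs, 4.79 in CP and 147 in NNE. Its target ID1 was at 671 CPM in NEP, 66.1 in ENCCs, 95.7 in CP and 1537 in NNE, and ID2 and ID3 were at 547 and 1585 CPM in NEP against 61.3 and 714 in ENCCs. NEP thus lay between ENCCs and NNE for BMP4 and ID1.

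Of 21 FGF and ERK genes, 7 passed, 4 were at least 2-fold higher than in ENCCs (FGF13, FGFR1, FGFR2, ETV1) and 1 lower (FGFBP3), with DUSP6 within rounding of the threshold. Only 1 of them had 10 CPM in both classes. The receptor FGFR2 was at 34 against 5.39 CPM and the ERK target ETV1 at 38 against 3.49. Of 20 Notch genes, 8 passed, 2 through NEP alone and 4 through ENCCs alone, with JAG1, HES1 and HEY1 at least 2-fold higher in NEP and NOTCH1, HES6 and HEYL at least 2-fold lower. HES1, a repressor downstream of Notch, was at 53.6 against 17.9 CPM and the receptor NOTCH1 at 4.06 against 19.7.

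Single members stood out of other lists. Of 15 neuropeptide precursors, 3 passed the filter, each through NEP alone, so their side was set by the filter. They were CCK, TRH (thyrotropin-releasing hormone) at 27.6 against 1.33 CPM, and GRP (gastrin-releasing peptide) at 20.5 against 0.92. BHMT was the only one of the 6 methionine and betaine genes past the filter that reached 2-fold, and AHCY, which hydrolyses S-adenosylhomocysteine, was at 300.1 against 199 CPM. Of 15 choroid plexus and pigment epithelium genes, 5 passed and 4 were at least 2-fold higher (FOLR1, PMEL, SERPINF1, TRPM3), while RPE65, the retinoid isomerase of pigment epithelium, had 0 UMIs. Of 13 cadherins, CDH2 and CDH8 were at least 2-fold higher. In the placode list 2 genes passed and GATA3, also an epithelial gene, was higher, and in the pluripotency list ZFP42 was higher and L1TD1 lower among 5 that passed.

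**Figure D3:**
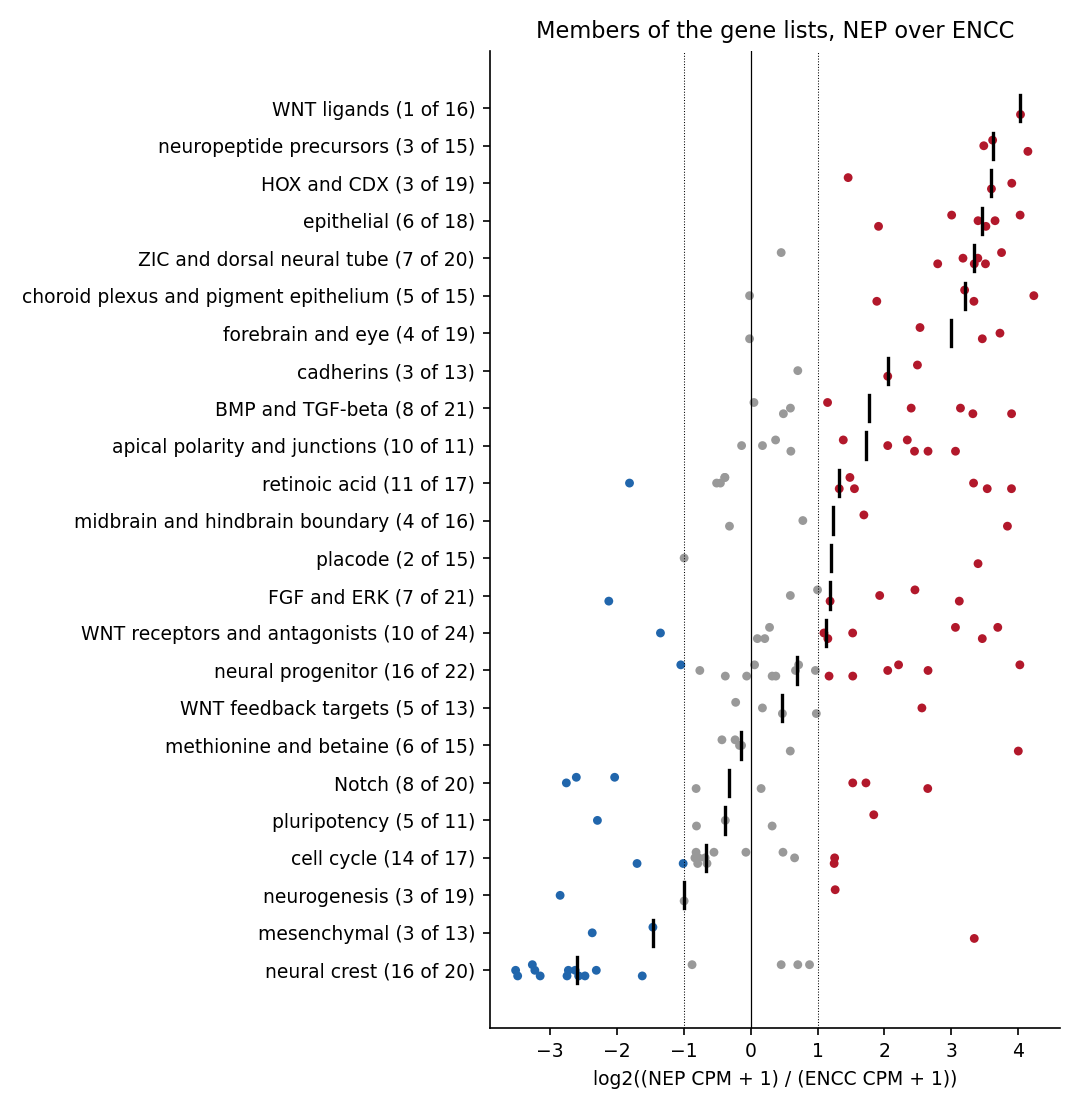
Log2 ratio of NEP over ENCCs for the members of each gene list with at least 10 CPM in either class. Each point is 1 gene, the vertical bar is the list's median, and dashed lines mark 2-fold. Members that passed through 1 class alone had to lie on the side of that class, among them 6 of 7 ZIC and dorsal genes, 3 of 6 epithelial genes, all 3 neuropeptide precursors and 7 of 16 crest genes, so a list's place is no support for its direction.

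Against CP, the placode cluster, 1003 of 7886 genes with at least 10 CPM (12.7%) were at least 2-fold higher in NEP and 393 (4.98%) at least 2-fold lower. The genes with the highest ratios, by the rule used for ENCCs, were ANXA1, SFRP2, ALDH1A1, TRPM3, KRT18 and DMKN. ANXA1, a phospholipid-binding annexin, was at 327 CPM in NEP and 4.39 in CP (log2 5.93). The genes with the lowest ratios were all of neuronal differentiation. NEUROD1, a factor of neuronal commitment, was at 0.142 CPM in NEP against 164 in CP, NHLH1 at 0.855 against 199.8, ISL1 at 0.427 against 112 and ONECUT2 at 1.14 against 146. ELAVL3 had 0 UMIs in NEP and 68.2 CPM in CP.

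Against NNE, the surface ectoderm cluster, the sides were nearly even. Of 8098 genes, 641 (7.92%) were at least 2-fold higher in NEP and 564 (6.96%) at least 2-fold lower, with a median log2 ratio of -0.01 on total UMIs and 0.01 with TMM factors. SFRP2, PAX6, TRPM3, WNT2B, KCNIP4 and CRABP1 had the highest ratios. KRT7, a keratin of simple epithelia, had the lowest at 3.63 CPM in NEP against 352 in NNE (log2 -6.25), followed by the tight junction gene CLDN7 at 4.49 against 349 (log2 -5.99) and the transporter ABCG2 at 1.5 against 152. EPCAM was at 9.62 against 248 CPM, CDH1 at 1.64 against 94.2 and TFAP2A, a factor of surface ectoderm and crest, at 10.9 against 399.7.

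Of 8546 genes, 322 (3.77%) were at least 2-fold higher in NEP than in each of the 3 other classes. The 20 highest above the next class, with at least 20 CPM, were led by TRPM3, CCK, HSD17B2, WNT2B and BHMT. MAB21L2, a gene of eye and body wall development, was at 89.2 CPM in NEP, 5.3 in ENCCs, 4.79 in CP and 1.62 in NNE. LIM2, a membrane protein of lens fibres, was at 47.9 CPM in NEP, 2.49 in ENCCs and 0 UMIs in NNE. The chemokine gene CCL2 was at 280.1 CPM in NEP, 22.4 in ENCCs, 14.4 in CP and 7.04 in NNE. KCNIP4, a potassium channel interactor, was at 67.5 CPM, LIX1 at 84.8, KLHL14 at 63.8, the proteoglycan gene SPOCK1 at 98.9, vitronectin (VTN) at 38.7 and MMRN1 at 47.2, each at 7.18 CPM or less in the other 3 classes. CLEC18C, at 34.7 CPM, has near-identical paralogs, and its count is uncertain. Of 25 lists, those with 3 or more members in this set were apical polarity and junctions (4), ZIC and dorsal neural tube (4), WNT receptors and antagonists (4), neural progenitor (3), forebrain and eye (3), FGF and ERK (3) and neuropeptide precursors (3), counted over all members of each list and with no test.

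A larger share of NEP cells than of ENCCs was called in G1. By the deposited phases, 70.0% of NEP cells (67.8 to 72.1%) were in G1, 15.8% in S and 14.2% in G2/M, whereas ENCCs had 39% in G1, 31.5% in S and 29.5% in G2/M. CP and NNE, with 64.5% (59 to 69.7%) and 63.2% (56.7 to 69.3%) in G1, were below NEP but nearer to it than to ENCCs. The part of free RNA in these calls was not tested. Genes of the cell cycle list were read as well. MKI67 was at 68.7 CPM in NEP against 139 in ENCCs (log2 -1.01), TOP2A at 141 against 243 and the cyclin gene CCND2 at 17 against 57.5, while the inhibitor CDKN1C was at 18.7 against 7.31. Of 17 genes, 14 passed, 2 were at least 2-fold higher and 2 lower (4 lower with TMM factors), with a median of -0.67.

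Levels of some NEP markers differed between the phases. WNT2B was at 901 CPM in G1 cells, 690.0 in S and 672 in G2/M, and TRPM3 at 362, 249 and 176. PAX6 was at 608, 448 and 558 CPM and lowest in S. BHMT ran against these, with 76.5 CPM in G1, 99 in S and 101 in G2/M. CXCL14 was at 191 CPM in G1 and 65.3 in S, and TRH at 36.1 and 9.74. The phases held unlike mixes of the NEP subclusters described below, since subcluster 2, which is low in WNT2B, gave 55 of 1267 G1 cells, 38 of 287 S cells and 34 of 257 G2/M cells. Within subcluster 1 alone, WNT2B was at 983 CPM in G1, 876 in S and 833 in G2/M, TRPM3 at 391, 328 and 215, and PAX6 at 669, 574 and 678. The WNT2B difference between G1 and S was thus smaller within subcluster 1. BHMT there was at 81.7, 137 and 132 CPM, CXCL14 at 211 in G1 and 82.3 in S, and TRH at 40.2 and 9.21, on 16 UMIs in S.

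**Figure D4:**
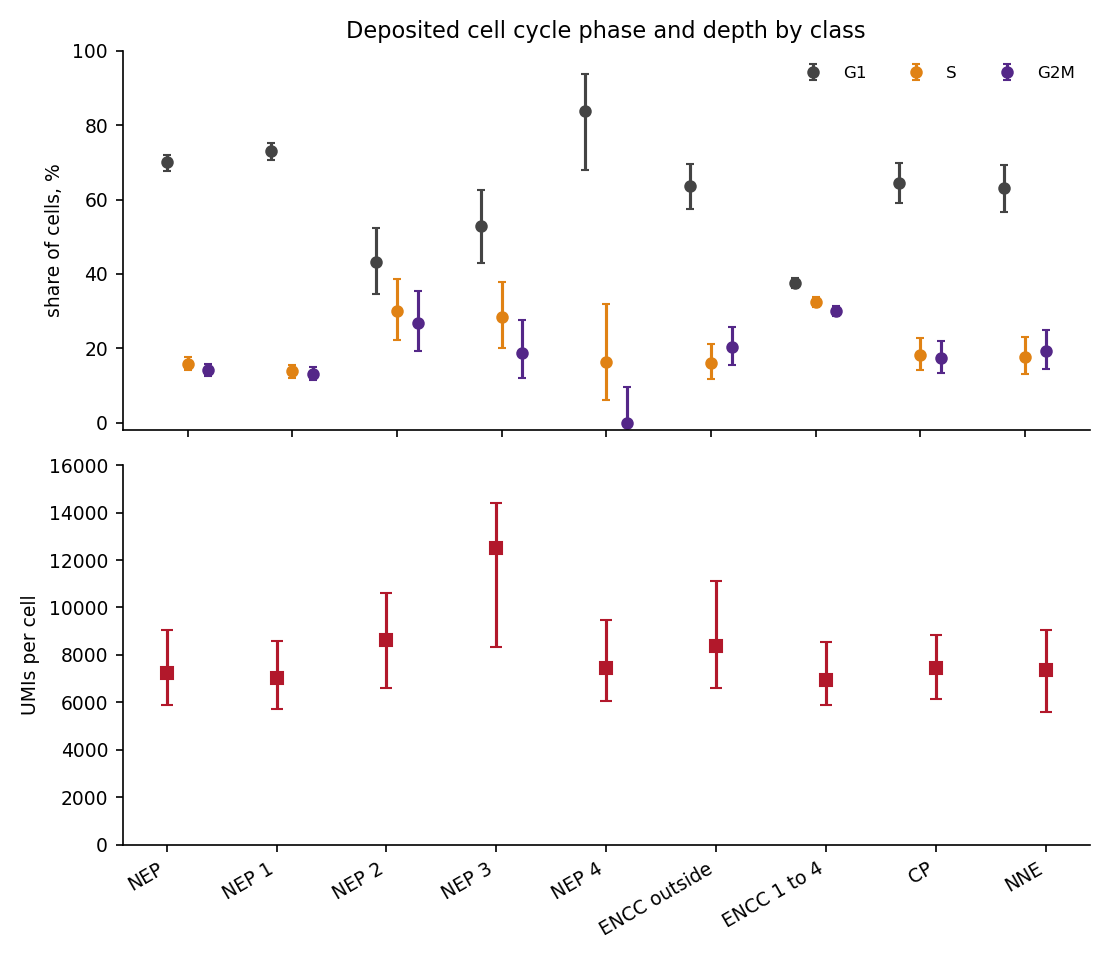
Top, the percent of cells in G1, S and G2/M by the deposited phase, with exact 95% binomial intervals. The groups are NEP, its subclusters, the ENCCs outside the numbered subclusters, the numbered ENCCs, CP and NNE. Bottom, UMIs per cell in the same groups, with the median and quartiles on a linear axis. NEP has 70.0% of its cells in G1, against 37.6% of the numbered ENCCs and 63.7% of the ENCCs outside them. Subcluster 3 has the highest median depth.

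Clustering of the NEP cells alone gave 4 subclusters, of 1541, 127, 106 and 37 cells (85.1, 7.01, 5.85 and 2.04% of NEP). They are kept by number, and the genes that define them are not findings. Subcluster 1 carried the NEP profile, with WNT2B at 944 CPM, PAX6 at 656, TRPM3 at 355, SFRP2 at 542 and BHMT at 97.6. In subclusters 2, 3 and 4, WNT2B was at 158, 537 and 44.6 CPM and PAX6 at 108, 342 and 34.3. After thinning, 5.1% of subcluster 1 cells, 69.6% of subcluster 2, 19.8% of subcluster 3 and 73% of subcluster 4 had no UMI of the 5 markers, which at this depth does not show that they were absent. Before thinning, WNT2B was detected in 31.5% of subcluster 2 and 18.9% of subcluster 4.

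Subcluster 2 was led by IGF2, a fetal growth factor, at 1413 CPM against 30.2 in subcluster 1 and 2163 in NNE. The cardiac and endodermal factor GATA6 was at 25.8 CPM against 0.701, TFAP2A at 81.8 against 2.8 and KRT18 at 1011 against 538. The 5 NNE markers summed to 2389 CPM here against 1301 in subcluster 1 and 5319 in NNE. Their part in the subcluster was not tested. HOX genes were higher, HOXB1 at 201 CPM against 11.6 and HOXA3 at 52.5 against 2.1, while OTX1 was at 11.6 against 73.9. After thinning, HOXB1 was found in 39.2% of its cells and in 1.57% of subcluster 1 (72.4% and 4.54% before thinning). The embryonic globin gene HBE1 was at 81.8 CPM in subcluster 2 and 1.14 in subcluster 1. Its level was higher still in subcluster 4, at 130 CPM on 38 UMIs.

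Subcluster 3 joined crest transcripts to the NEP markers and had 12495 UMIs and 2861 genes per median cell, against 7012 UMIs in subcluster 1. SOX10 was at 84.9 CPM against 5.52 in subcluster 1 and 119.7 in ENCCs, and TFAP2B at 218 against 13.9 and 425. WNT2B, at 537 CPM, was between subcluster 1 and ENCCs in the same way. Its 106 cells held 8.64% of the UMIs of NEP but 58.2% of those of SOX10 and 74.1% of those of FOXD3. At least 2 crest markers were found in 60.4% of its thinned cells, 1.57% of subcluster 1 and 82.6% of numbered ENCCs. No doublet caller was used, and whether these cells are doublets was not tested. Without subcluster 3, 1038 genes were at least 2-fold higher than in ENCCs and 240 lower, and against the numbered ENCCs 1126 and 258, in place of 970 and 209.

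Subcluster 4, with 37 cells, held 83.8% of its cells in G1 and 0 in G2/M (upper bound of the interval 9.49%). LMX1A was at 89.2 CPM (58.3 to 131) against 25.8 in subcluster 1, and GDF7 at 44.6 (23.7 to 76.3) against 12.6. HOXB1 was at 137 CPM, HOXB2 at 141 and HOXA3 at 78.9. The roof plate markers summed to 250.4 CPM against 88.3 in subcluster 1. The claudin gene CLDN11 was at 99.5 CPM and the neurofilament gene NEFM at 141, on 29 and 41 UMIs. The HOX and CDX list summed to 508 CPM in subcluster 4 and 539 in subcluster 2, against 101 in subcluster 1 and 35.4 in subcluster 3.

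**Figure D5:**
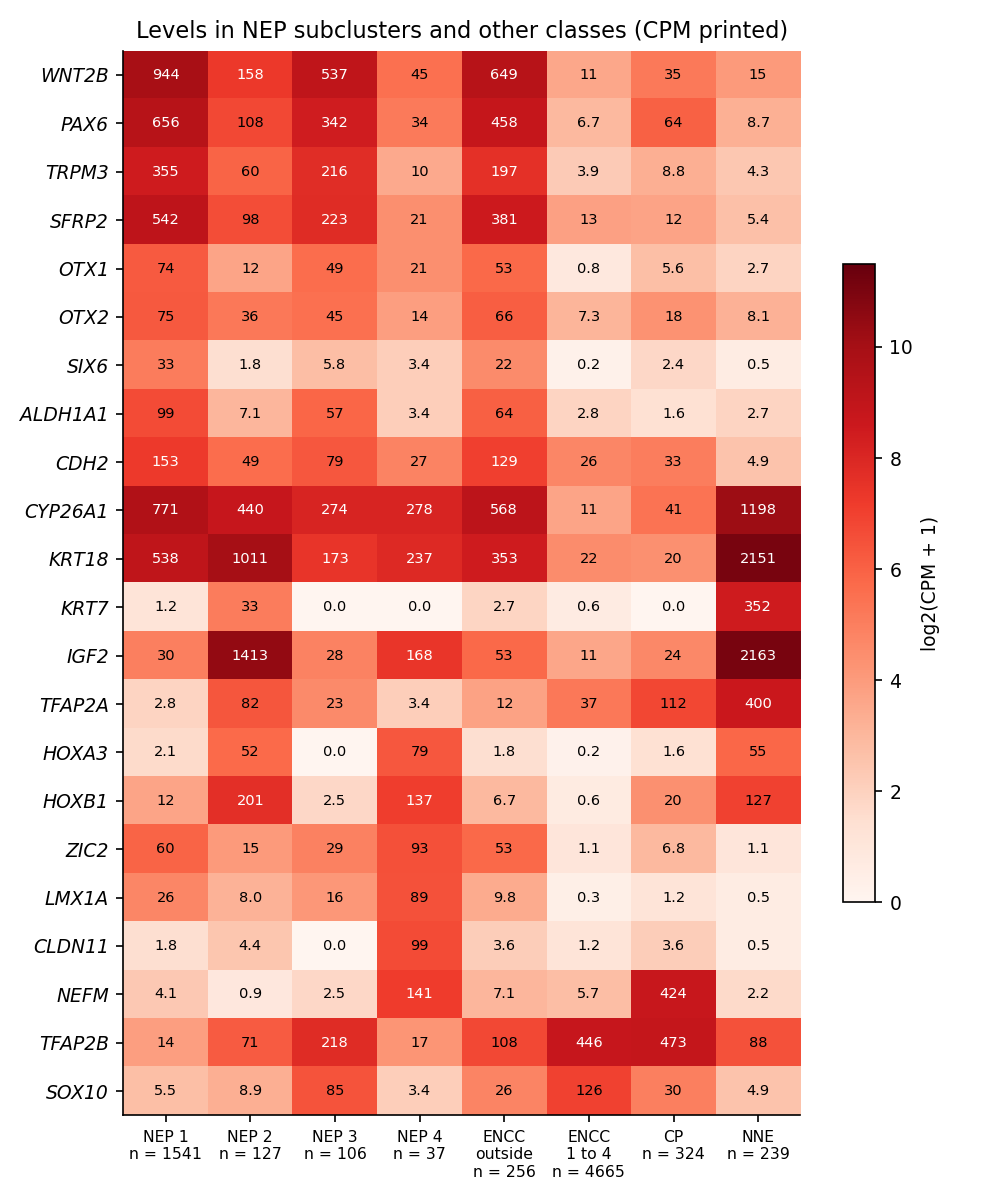
Levels of chosen genes in the 4 NEP subclusters and, beside them, the ENCCs outside the numbered subclusters, the numbered ENCCs (ENCC 1 to 4), CP and NNE, in CPM printed in each cell with shading by log2(CPM + 1). The WNT2B row falls from 944 CPM in subcluster 1 to 44.6 in subcluster 4, IGF2 is highest in subcluster 2 and NNE, and SOX10 in subcluster 3 and the numbered ENCCs.

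A finer resolution left subclusters 2, 3 and 4 whole and divided nearly all of subcluster 1 into groups of 746, 645 and 144 cells. The first had ZIC2 at 98.7 CPM, LMX1A at 42.2 and ZIC1 at 30.3. The second had ZIC1 at 1.67 but BHMT at 189.7 against 33.4 in the first, ANXA1 at 703 against 165 and ALDH1A1 at 167 against 56.7. OTX2 was at 71.4 and 79 CPM in these 2 groups and did not separate them. The third had WNT2B at 394 and TRPM3 at 59.3 CPM and was led by RARRES2, a gene induced by retinoids, at 89.

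The day 15 library held 104 cells of the NEP label, with 1147149 UMIs in all and a median of 10954 per cell. Since its counts come from another library, medium and culture form, and since subcluster 3 at day 10 was led by markers of another class, the values are only set side by side. WNT2B was at 123 CPM and PAX6 at 112 in the day 15 cells, CYP26A1 at 81.1, SFRP2 at 555 and EMX2, a forebrain factor, at 255, while BHMT had 0 UMIs, which allows up to 2.62 CPM.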

How the data were processed

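Droplet-based 3′ RNA sequencing had been run on 1 library of the day 10 culture. The authors extracted raw UMI counts per gene and cell with kallisto and bustools per their methods, while the submitters' processing notes list Cell Ranger, GRCh38 and Seurat 4.0.4; the annotation release is not given in the sources used here. The deposited metadata hold counts of UMIs and genes per cell, mitochondrial and ribosomal percent computed by the authors in Seurat, an unused novelty score, a phase and a type. Cells outside the authors' limits on genes, UMIs and mitochondrial percent were left out, and doublets were not treated further.

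Counts were summed per class, scaled to CPM over the class's own UMIs, and compared as log2 ratios with a pseudocount of 1 CPM, which understates the ratios of low genes. Genes with at least 10 CPM in either class were compared, and a 2-fold difference was counted. With 1 library there is no replicate check, so no test, p-value or standard error was computed. A count of 0 was taken to allow 3 counts. The labels of the pooled repeats name biological repeats, but cells cannot be traced to them. Shares of cells with a UMI were taken after thinning to 3000 UMIs. NEP cells were clustered with Seurat 5.3.0 under R 4.3.3 on 2000 variable genes and 17 principal components at resolution 0.2, with UMIs, genes, cell cycle scores and the mitochondrial and ribosomal shares regressed out. TMM factors came from edgeR 4.0.16, and the rest was computed with Python 3.11.15, numpy 2.4.6, scipy 1.17.1 and pandas 2.3.3. The 2-fold calls and ratios were tested on simulated class sums and the thinning on a simulated matrix, and the intervals were not tested. Coordinates are from a GRCh38 annotation, matched by gene symbol, and promoter windows are from RefSeq.

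NEP cells, the 25 gene lists and the marker lists were chosen with earlier results of these data known. Genes could be named if they belonged to a list, were among the 12 highest or 12 lowest log2 ratios against ENCCs or the 6 highest or lowest against CP or NNE (at least 50 CPM and a UMI in 10% of cells, without mitochondrial and ribosomal genes), were among the 20 highest over all 3 classes (at least 20 CPM), or were among the 8 leading genes of a subcluster or the 6 most abundant of NEP. Not every gene so chosen is reported, and some items are not reported here.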

Additional observations from a re-analysis of the deposited data

Results flagged for a closer look

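The cells that the authors marked as low quality hold a signal in data outside every comparison above. Each of the 2332 removed cells of the day 10 library was placed in the class with the most likely expression profile. Of them 878, 37.7% (35.7 to 39.7%), were nearest to NEP. Among kept cells 24.8% had the NEP label, which is a different measure, and their share by the same placement is not given here. The same placement returned the deposited label for 95.4% of kept NEP cells and 95.1% of kept ENCCs. The profiles were summed over these same kept cells, so this return is no check on the placement of removed cells. The removed cells placed in NEP had WNT2B at 950.0 CPM, PAX6 at 591, TRPM3 at 318 and BHMT at 95, and SOX10 at 14.2. Since these genes helped to place the cells, their levels are a description. They had a median of 6654 UMIs, 2154 genes and 5.20% mitochondrial UMIs, and 543 of them were over the mitochondrial limit, whereas the 1267 removed cells placed in ENCC had a median of 3314 UMIs and 1109 genes. With them, NEP would come to 2689 cells, 27.9% of all cells of the library. That count takes kept cells by label and removed cells by placement. Why these cells were over the limits was not tested.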

How the results depend on the processing

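No paired analysis was possible because there was 1 library per group and no result came from a test. NEP made up 24.8% of kept cells, 27.9% with removed cells placed by their profile, 23.6% with the mitochondrial percent kept under 3, 23.7% without the 10% of kept cells with the most UMIs, and 23.7% without subcluster 3. The share of NEP cells in G1 was 72.2% in place of 70.0% when phases were scored again. With a filter of at least 1 CPM, 2151 genes were at least 2-fold higher in NEP than in ENCCs and 370 lower, 2375 were higher than in CP and 1800 higher than in NNE. With at least 50 CPM these counts were 249, 65, 250 and 159, from fewer genes tested. TMM factors gave 343 genes lower than in ENCCs in place of 209. Against NNE the side with more genes turned with at least 50 CPM, where 159 were higher and 177 lower, and the median log2 ratio of all genes against ENCCs and NNE changed sign with TMM factors, as given above. Of the values that answer a comparison, 30 moved by less than 1.5 times or by less than their interval, and 14 by more. Of the other values, 144 held in this sense and 26 moved, among them lists with 1 or 2 members past 2-fold. At resolution 0.5 the NEP cells fell into 6 subclusters and without regression into 5, as against 4. The alternatives without subcluster 3 or with the numbered ENCCs only, and the phases within subcluster 1, were chosen after seeing the data. Depth limits the small groups: 1 UMI in subcluster 4 is worth far more CPM than 1 UMI in all NEP cells, and day 10 culture, medium and library cannot be told apart.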

Other observations

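Without regression of cell cycle scores and depth, the NEP cells split first by phase. A group of 1072 cells had 98.1% of its cells in G1 and was led by TRH, CLEC18C and CXCL14, and a group of 453 cells had 14.1% in G1 and was led by mitotic genes such as MKI67, TOP2A and UBE2C. Apart from mitochondrial and ribosomal genes, the transcripts with the most UMIs in NEP were MALAT1, a nuclear noncoding RNA, at 31043 CPM (16557 in ENCCs), the elongation factor gene EEF1A1 at 13586 (14877), the thymosin gene TMSB4X at 8273 (4695), the ferritin gene FTL at 5495 (2714) and the growth factor gene MDK at 5297 (3419).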
